A study of Mus musculus with 48 samples.

Results

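Junctions of the distal portion of sub-TAD sTAD4 in the mouse Igκ locus on chromosome 6 (mm9) were examined. The interval is 410 kb long, starts 61 bp below the break at Igkv13-84 (position 68890062), ends 15403 bp above the last break site (position 69284597), and makes up 13.0% of the length of the Vκ region. Across 48 HTGTS-JoinT-seq libraries it held 805938 of 7265223 junctions of the Vκ region and of 8250887 junctions in all. Break sites were placed where at least 30 signal end bait junctions of arrested WT libraries piled up at 1 position with the bases CAC next to it, and the interval held 20 of the 138 sites found in the Vκ region. HTGTS-JoinT-seq amplifies from a fixed bait end at the Jκ1 break, so that each junction gives the place in the genome to which that end was joined.

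The libraries came from vAbl cells, which are mouse progenitor B cells transformed by the Abelson kinase. They were WT or Ku70-/-, each genotype a single clone in the methods, so the loss of Ku70 and other differences between the clones cannot be told apart. Cells were cycling, or were arrested with STI-571 (3 µM, 96 h) together with DMSO, L67 (5 µM) or L82-G17 (25 µM). STI-571 blocks the Abelson kinase, and L67 and L82-G17 are DNA ligase inhibitors. Each genotype and treatment was read from the Jκ1 coding end and from the Jκ1 signal end in 3 libraries, which makes 16 groups. The junction lists hold no expression data, so the cell type could not be checked against marker genes. The paper states that its experiments were biologically repeated 3 times. Libraries were not tied to separate cultures by their labels, so p-values measure the spread between libraries, which may be technical.

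V(D)J recombination joins a variable segment to a joining segment in developing lymphocytes. RAG1/2 binds a recombination signal sequence, made of a heptamer, a spacer and a nonamer, and cuts at the border of the heptamer. Each cut leaves a hairpin-sealed coding end and a blunt signal end. Normally the coding ends are opened, trimmed and joined to each other, and the signal ends are joined to each other with little or no loss, both by NHEJ (nonhomologous end joining), which Ku70 and its partner start. In cells without Ku the remaining joins are made by alternative end joining. A join between a coding end and a signal end is called a hybrid join. Vκ segments lie in either orientation, and recombination with Jκ1 deletes the DNA between or inverts it.

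The interval was mostly a stretch of one Vκ family. Of the 20 sites, 12 had an annotated Vκ gene beside them, 11 of which were Igkv4 genes, and the remaining gene was Igkv13-84 at the distal edge. The other 8 sites had no annotated gene in the annotation used and are called U1 to U8 in chromosome order. Inversional sites numbered 16 and deletional sites 4 (Igkv13-84, U2, U3 and U4), against 75 and 63 over the whole region. The full heptamer CACAGTG was present at 16 of the 20 sites, against 111 of 138 in the region. The full nonamer ACAAAAACC was present at 13 of the 20, against 39 of 138.

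The sequences at the sites that carry the results are given 5′ to 3′ toward the nonamer, with 20 bases of the coding end followed by the recombination signal, and with the heptamer and nonamer in capitals. They were read from the reference genome of the same assembly as mm9. Igkv4-81, Igkv4-80 and U5 were among the 4 most used sites in WT DMSO coding end libraries.
Igkv4-81 (chr6:68940724-68940771, minus strand): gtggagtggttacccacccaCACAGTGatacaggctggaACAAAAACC
Igkv4-80 (chr6:68966524-68966571, minus strand): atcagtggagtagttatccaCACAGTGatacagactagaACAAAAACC
U5 (chr6:69060870-69060917, minus strand): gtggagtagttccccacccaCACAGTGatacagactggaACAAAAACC
Igkv4-70 and Igkv4-69 had the same 48 bases, and carried the largest difference between the baits.
Igkv4-70 (chr6:69217854-69217901, minus strand): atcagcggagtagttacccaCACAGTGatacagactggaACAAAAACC
Igkv4-69 (chr6:69233760-69233807, minus strand): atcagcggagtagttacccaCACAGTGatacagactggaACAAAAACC
Igkv13-84 showed the opposite difference between the baits and, of the interval's annotated genes, the most hybrid joins in WT cells.
Igkv13-84 (chr6:68890042-68890089, plus strand): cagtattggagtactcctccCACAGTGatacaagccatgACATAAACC
U2, U3, U4 and U7 lacked the full heptamer and were among the least used sites.
U2 (chr6:68929638-68929685, plus strand): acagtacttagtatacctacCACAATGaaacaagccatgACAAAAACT
U3 (chr6:68935308-68935355, plus strand): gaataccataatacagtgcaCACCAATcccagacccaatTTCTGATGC
U4 (chr6:69036473-69036520, plus strand): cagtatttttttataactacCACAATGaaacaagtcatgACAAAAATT
U7 (chr6:69275920-69275967, minus strand): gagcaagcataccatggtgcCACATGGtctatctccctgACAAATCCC
U8 and U1 had a full heptamer and no annotated gene, and were also little used.
U8 (chr6:69284570-69284617, minus strand): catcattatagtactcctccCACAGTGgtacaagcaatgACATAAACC
U1 (chr6:68911344-68911391, minus strand): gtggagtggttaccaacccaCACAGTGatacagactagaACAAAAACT
The Jκ1 break that served as bait is given on the plus strand, with the nonamer first and the coding end last.
Jκ1 (chr6:70672517-70672575): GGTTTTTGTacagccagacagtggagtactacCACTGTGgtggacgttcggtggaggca

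Libraries held from 8294 to 385847 junctions, of which 460 to 40793 fell in the interval, with the fewest in cycling Ku70-/- cells. Every library came from 2 sequencing runs, the smaller with 9.42 to 10.6% of the junctions. Shares below are taken of the junctions of the Vκ region unless stated, so that fewer cuts and fewer recovered joins cannot be told apart. One Ku70-/- DMSO library per bait, called replicate 1 here, stood apart and is not listed in the study's supplementary tables. In the interval it repeated each distinct junction 95.6 times (coding end bait) and 112 times (signal end bait), against 6.38 to 10.4 times in replicates 2 and 3. In arrested WT signal end libraries, where most joins took a single form per site, the number was 58.2 to 92.4. It held 138 and 155 distinct junctions, against 1772 to 2317. Its most frequent junction made up 27.7% of the interval with either bait, at Igkv4-74 from the coding end and at Igkv4-80 from the signal end, against 0.537 to 1.28% in the other replicates. The main results that include this library are therefore also given without it.

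In arrested WT cells with DMSO, the interval took 10.9%, 10.7% and 10.9% of Vκ junctions from the coding end, a share below its 13.0% of the length. None of its sites was among the 20 most used of the 130 sites with a junction, and the best ranked 24th. Among sites with a junction, the median share was 0.662% over those of the interval and 0.453% over all 130. Use was spread over many neighbours, and the 3 highest sites held 35.1% of the interval's site junctions.

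Igkv4-81, a Vκ gene of the Igkv4 family like the others named below, took 1.474%, 1.465% and 1.496% of junctions in the 3 WT DMSO coding end libraries. U5 took 1.30%, 1.19% and 1.25%. Igkv4-72 took 1.01%, 1.15% and 1.08%. The 3 libraries of Igkv4-81 lay above all 3 of U5, whereas those of U5 lay above those of Igkv4-72. Igkv4-80 took 1.09%, 0.997% and 1.12%, which overlapped Igkv4-72. Igkv4-74 (0.869% ± 0.0696, SD, n = 3), Igkv4-68 (0.791% ± 0.0324), Igkv4-69 (0.782% ± 0.0209), Igkv4-70 (0.727% ± 0.0257) and Igkv4-73 (0.719% ± 0.0180) followed. Neighbours in this order overlapped, except that all 3 libraries of Igkv4-69 lay above those of Igkv4-70. Igkv4-71 stood at 0.605% ± 0.0253, Igkv4-78 at 0.501% ± 0.0421 and Igkv4-79 at 0.346% ± 0.0331. U5 and U6 (0.308% ± 0.0624) were thus used within the range of the annotated genes.

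The remaining sites were used far less. U1 took 0.0591% ± 0.00972 of WT DMSO coding end junctions and U2 took 0.0112% ± 0.00407. U8 was at 0.00660% ± 0.00248, and U4 held 7 junctions over the 3 libraries. U3 and U7 held none, and each rested on a single library elsewhere: U3 on 33 junctions, 2 of them distinct, in WT DMSO signal end replicate 3, and U7 on 59 copies of 1 distinct junction in WT L67 signal end replicate 2. The U3 nonamer matched ACAAAAACC at 2 of 9 bases, whereas the other sites matched at 7 or more. At U3 none of the signal preys lay at the break itself, and 97.0% of its joins shared more than 1 bp. U4 took at most 0.0246% in any WT library and had no junction in the 24 Ku70-/- libraries, which is a description only, since sites were placed from arrested WT signal end junctions and a site used in Ku70-/- cells alone would not be listed. At the edges of the interval, Igkv13-84 (0.229%) lay 61 bp inside and U8 15403 bp inside, whereas the nearest sites outside took 0.109% at 9739 bp below and 1.86% (Igkv4-61) at 66886 bp above. Of the 44411 junctions within 200 bp of the Igkv13-84 break, 694 (1.56%) fell below the edge. They were left out of the values over the interval but kept in the usage and readouts of the site itself.

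**Figure D1:**
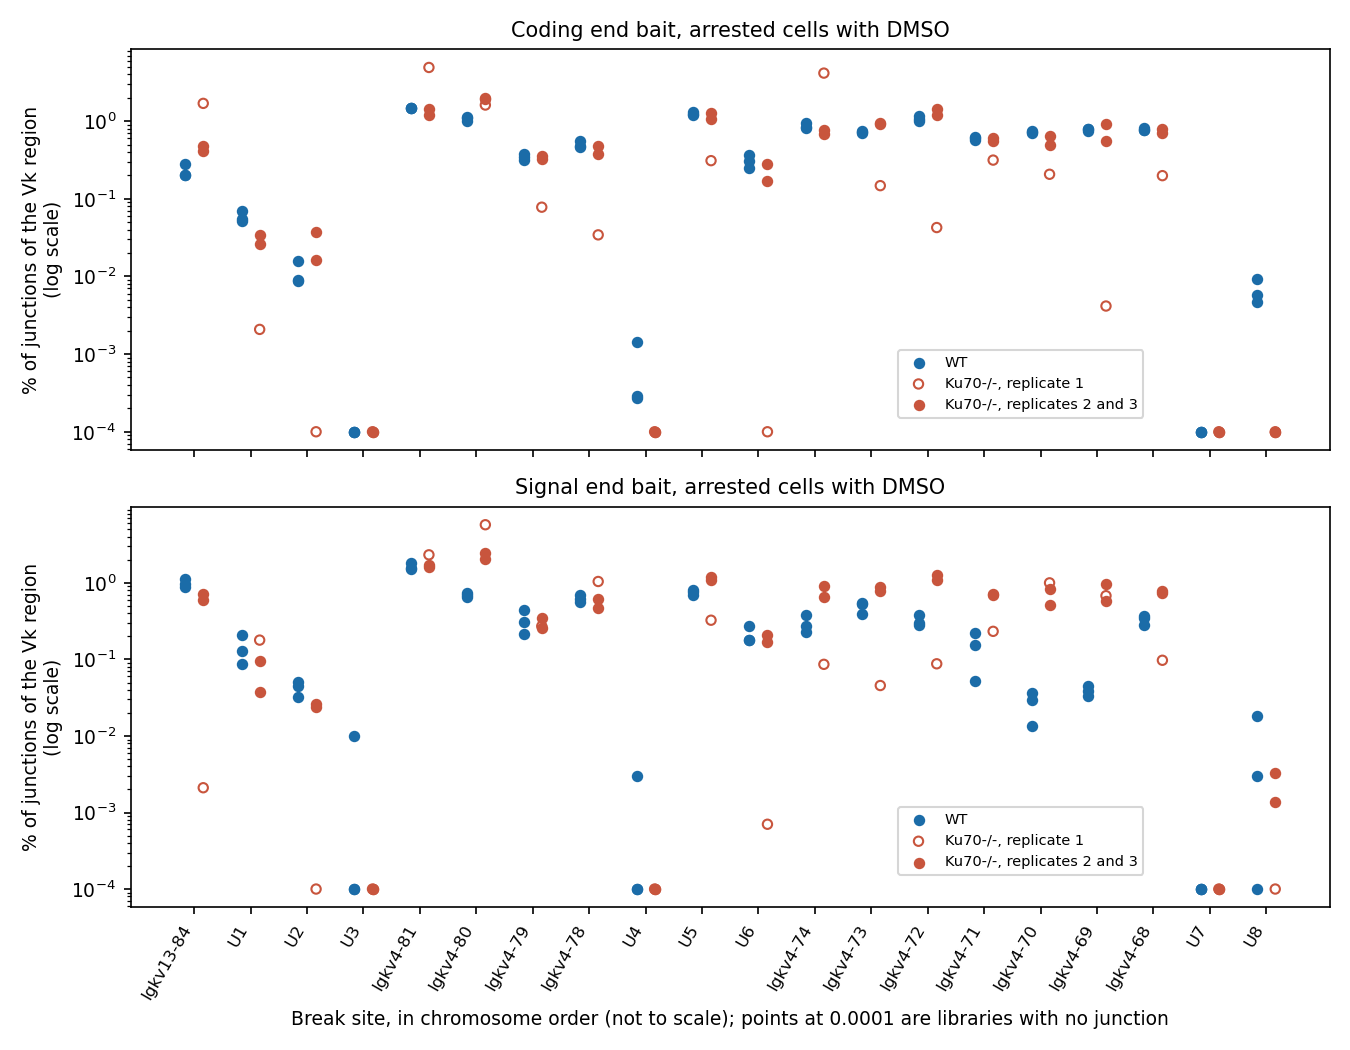
Share of Vκ region junctions (log scale) at each of the 20 break sites in chromosome order, for arrested cells with DMSO; each point is 1 library, open circles are Ku70-/- replicate 1, and points at the lowest level are libraries with no junction. From the coding end the WT points of Igkv4-81 (1.48% on average) stand highest, and from the signal end the WT points of Igkv4-70 and Igkv4-69 (0.0268% and 0.0394%) stand below all Ku70-/- points of the same genes. Coding and signal preys are counted together.

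The 2 baits did not give the same picture in WT cells. From the signal end the interval took 7.15%, 7.35% and 7.24% of Vκ junctions in the WT DMSO libraries, below all 3 coding end libraries (difference -3.59 percentage points; exact two-sided permutation test, p = 0.1, the smallest that 3 against 3 libraries allow). Of 16 sites tested, 4 were higher and 9 lower from the signal end than from the coding end, where 60.5% of all sites tested in the region were called, 26.3% higher and 34.2% lower (limma, Benjamini-Hochberg adjusted over all sites at 0.05). The 4 include U2, a little used site whose higher value was favoured by its placing from WT signal end junctions. With all groups of both baits in 1 fit the interval had 2 calls in place of 13, and 7 with each distinct junction counted once.

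Igkv4-70 took 0.726%, 0.754% and 0.702% of junctions from the coding end. Its signal end values were 0.0298%, 0.0137% and 0.0369%, and the difference was -4.85 on the log2 scale (SE 0.35, limma adjusted p = 1.6e-06). Igkv4-69 took 0.798%, 0.789% and 0.758% from the coding end. From the signal end it was lower as well, at 0.0456%, 0.0390% and 0.0335% (log2 difference -4.30, SE 0.20, adjusted p = 2.1e-07). At both genes every signal end library lay below every coding end library. Igkv4-71, Igkv4-72, Igkv4-74 and Igkv4-68 differed in the same direction by -2.29, -1.75, -1.57 and -1.24. Igkv4-81 differed by 0.15, which did not pass the test (adjusted p = 0.14).

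Igkv13-84 went the other way. It took 0.285%, 0.200% and 0.201% from the coding end and 0.877%, 0.967% and 1.13% from the signal end, with no overlap (log2 difference 2.14, SE 0.17, adjusted p = 2.9e-06). The deletional site U2 took 0.00883%, 0.0159% and 0.00895% from the coding end and 0.0503%, 0.0454% and 0.0326% from the signal end. It is a little used site placed from arrested WT signal end junctions, so a higher value in those libraries was favoured by its choice. It is therefore given here and below without an adjusted p wherever they are the higher group. It was still among the sites tested, and counts of calls include it where it passed.

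In Ku70-/- cells no such difference between baits passed the test in the fit of these groups alone, and 2 sites of the interval did with all groups in 1 fit. With all libraries the log2 difference was 0.88 at Igkv4-70, 2.38 at Igkv4-69, 0.03 at Igkv4-71, -1.81 at Igkv4-74, 0.23 at Igkv4-72 and -2.73 at Igkv13-84, with SEs of 0.79 to 2.09. Without replicate 1, the log2 difference was 0.20 at Igkv4-70, 0.06 at Igkv4-69, 0.27 at Igkv4-71, 0.09 at Igkv4-74, -0.15 at Igkv4-72 and 0.54 at Igkv13-84. No site of the interval, and 0% of the region, was called between baits in Ku70-/- DMSO libraries by limma (0 of 15 at an unadjusted p under 0.05), and none of the interval was called without both replicates 1, where 10.9% of the region was. The test of the difference itself, bait effect in Ku70-/- minus bait effect in WT, called 1 of 16 sites of the interval higher with all DMSO libraries, where 5.26% of sites in the region were called. That site was Igkv4-70 (5.73, SE 0.85, adjusted p = 0.0029). Without both replicates 1 it called 8 higher and 2 lower of 16 (49.6% in the region). In L67-treated cells, whose libraries are separate from these, it called 8 higher and 2 lower of 16 (43.8% in the region). The 2 lower sites, here and without both replicates 1, include U2, whose direction was favoured by its placing from arrested WT signal end junctions. In L82-G17-treated cells it called 6 higher and 2 lower of 15 (32.7% in the region). Igkv4-70 stood at 4.67 and 2.80, and Igkv4-69 at 4.75 and 3.63, with L67 and L82-G17. Usage counts coding and signal preys together, and their mix differed between the genotypes, as given below for hybrid joins.

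The sites with the longest runs of sequence shared with another place in the region were among those with a large bait difference, without a fixed order. On the signal side Igkv4-70 and Igkv4-69 were identical to each other for 151 bp outward from the break, and Igkv4-74 and Igkv4-71 for 182 bp. On the coding side Igkv13-84 was identical for 193 bp to the site 9739 bp outside the interval, and for 14 bp on its signal side. In the Vκ region 108 sites exceeded 0.05% from either bait in WT DMSO cells. Run lengths are given to the longest match at any other place in or beside the Vκ region, on either strand, and not only at break sites. Igkv4-72, with a run of 86 bp, differed more than Igkv4-74, whereas Igkv4-73 and U5, with 94 bp, differed by -0.55 and -0.72. The sites with a signal side run of at least 150 bp were these same 4 genes, so the 108 sites held no further one, and the length was chosen with their values known. Of the 6 sites with a coding side run of that length, Igkv13-84 among them, 5 were higher from the signal end, as were 42 of the 98 other sites. Across these sites, which share libraries and family sequences, Spearman's rho between the signal side run minus the coding side run and the log2 ratio was -0.42. The mapped length of signal preys in WT DMSO signal end libraries was also longer at the 4 genes, with a median of 274 bp at Igkv4-70, 291 bp at Igkv4-69, 222 bp at Igkv4-74 and 223 bp at Igkv4-71, against 84 to 166 bp at the other sites with signal preys there, among them 165 bp at Igkv4-72, 159 bp at Igkv4-68, 166 bp at Igkv4-73 and 159 bp at U5. The part of read alignment in the bait difference was not tested.

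**Figure D2:**
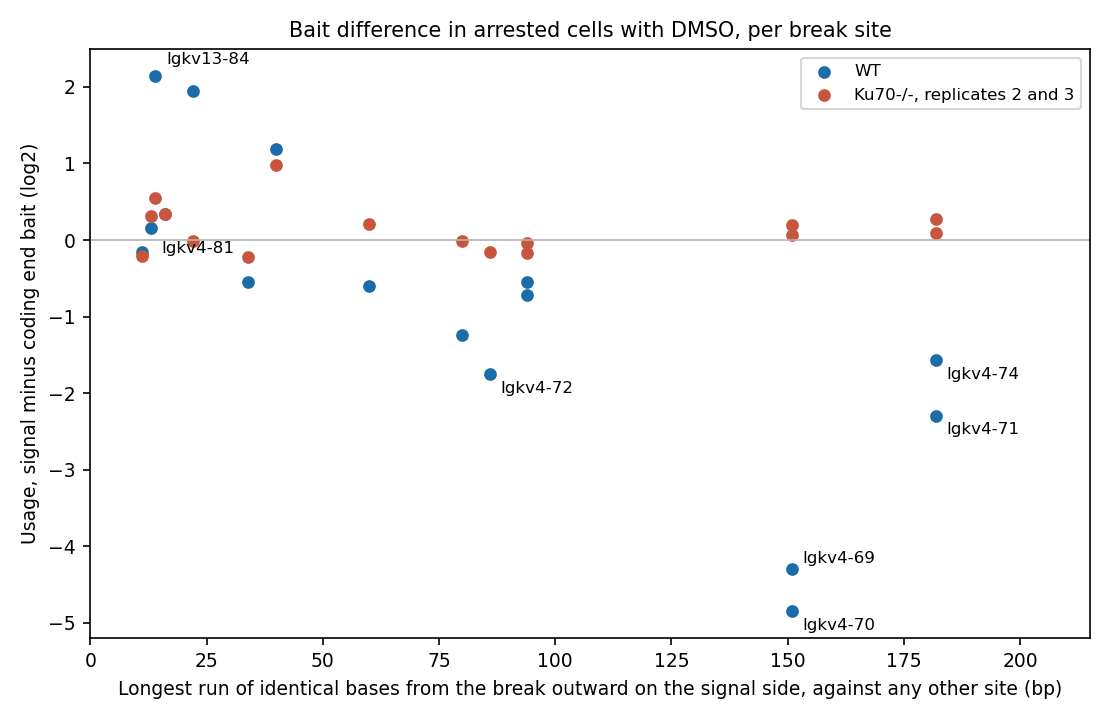
Log2 usage from the signal end bait minus the coding end bait (y) against the longest run of bases on the signal side of the break identical to any other place in or beside the Vκ region (x, bp), in arrested cells with DMSO; each point is a break site of the interval, blue for WT and red for Ku70-/- replicates 2 and 3. WT points fall to -4.85 (Igkv4-70) and -4.30 (Igkv4-69), whereas the Ku70-/- points of the same sites stand at 0.20 and 0.06. Coding and signal preys are counted together.

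The interval's share also differed between genotypes, by bait and by arrest. From the signal end it took 7.15%, 7.35% and 7.24% in WT and 12.2%, 13.3% and 12.2% in Ku70-/- DMSO libraries (difference 5.31 points, exact permutation p = 0.1, no overlap). From the coding end it took 10.9%, 10.7% and 10.9% in WT and 13.7%, 12.3% and 11.3% in Ku70-/- (difference 1.58 points, exact permutation p = 0.1), and the Ku70-/- mean was 11.8% without replicate 1. The signal end difference kept its direction with L67 (14.9% ± 0.447 against 9.50% ± 0.293) and with L82-G17 (12.6% ± 0.846 against 9.95% ± 0.161), and no libraries overlapped in either. In cycling cells Ku70-/- was lower from the coding end (9.81% ± 1.43 against 12.1% ± 0.567, -2.31 points) and higher from the signal end (16.1% ± 2.31 against 10.6% ± 1.69, 5.53 points), without overlap (exact permutation p = 0.1 each). At the signal end the difference went from 5.31 to 0.680 points (DMSO), from 5.42 to 0.574 (L67) and from 2.70 to 1.504 (L82-G17) with each distinct junction counted once, and to 2.88, 2.41 and 0.206 points as a share of all junctions. Taken of all junctions in place of Vκ junctions, the DMSO coding end difference turned to -0.9998 points, and with each distinct junction counted once it turned to -2.87 points.

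Among single sites, Igkv4-80 was the one called from the coding end with DMSO, of 15 tested, where 11.6% of the region was called and 5.36% was higher. It took 1.09%, 0.997% and 1.12% in WT. In Ku70-/- it took 1.61%, 1.96% and 1.96%, above all WT libraries (log2 difference 0.82, SE 0.16, limma adjusted p = 0.021). The first of these is replicate 1, where single junctions at this gene held 852 and 633 copies. The difference was 1.13 (SE 0.08, adjusted p = 1.5e-05) with L67 and 0.93 (SE 0.11, adjusted p = 6.9e-05) with L82-G17. These contrasts use separate libraries, and in each of the 3 no Ku70-/- library of Igkv4-80 overlapped a WT library. With DMSO the call was lost when any library other than Ku70-/- replicate 1 was left out, at log2 differences of 0.77 to 0.85, and with each distinct junction counted once it was 0.45 and did not pass. In cycling cells none of 11 sites was called (12.3% of the region, 4.62% higher and 7.69% lower; 1 at an unadjusted p under 0.05), but 2 were with all groups of a bait in 1 fit or without Ku70-/- replicate 3.

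With DMSO and the signal end bait, 3 of 16 sites were higher in Ku70-/- and none lower, where 12.4% of the region was called, 6.19% in each direction. Igkv4-70 took 1.00%, 0.833% and 0.511% in Ku70-/-, against at most 0.0369% in WT (log2 difference 4.92, SE 0.68, adjusted p = 0.0060). Igkv4-69 took 0.682%, 0.969% and 0.580%, against at most 0.0456% (4.21, SE 0.52, adjusted p = 0.0040). Igkv4-80, the third site called, took 5.77%, 2.50% and 2.09%, against at most 0.749% (2.16, SE 0.40, adjusted p = 0.020). The first Ku70-/- value of each gene is replicate 1. There, single junctions held 1418 copies at Igkv4-70, 720 at Igkv4-69, and 4803 and 2595 at Igkv4-80. Replicates 2 and 3 also lay above all WT libraries at the 3 genes. Without WT replicate 1 the interval had 1 call, and Igkv4-70 no longer passed at 5.05. With L67 Igkv4-70 differed by 4.19 (SE 0.36) and Igkv4-69 by 4.86 (SE 0.58), and with L82-G17 by 2.91 (SE 0.62) and 4.18 (SE 0.65). Usage counts coding and signal preys together. In Ku70-/- DMSO replicates 2 and 3 most signal end bait junctions at both genes were hybrid joins with coding preys, as given below. Over the interval, WT preys of this bait were mostly signal ends. The differences are thus not differences in signal end joins alone. In cycling cells none of 9 sites was called (3.77% of the region, 1.89% in each direction; 3 at an unadjusted p under 0.05), but 3 were with all groups of a bait in 1 fit or without Ku70-/- replicate 1.

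Removing replicate 1 raised the number of calls over the region and in the interval. Without it, 3 sites were higher and 1 lower from the coding end (45.1% of the region called), and 9 were higher and 1 lower from the signal end (58.0%). With L67, 3 were higher and 1 lower of 15 from the coding end (41.4%; 19.8% higher and 21.6% lower), and 8 higher and 2 lower of 16 from the signal end (50% of the region; 26.8% higher and 23.2% lower). With L82-G17, 3 were higher and 3 lower of 15 from the coding end (51.4%; 23.9% higher and 27.5% lower), and 8 higher and 4 lower of 16 from the signal end (48.6%; 26.2% higher and 22.4% lower). The lower signal end sites include U2 with both inhibitors and U1 with L82-G17. Both are little used sites placed from arrested WT signal end junctions, which favoured this direction. Calls in the interval were thus 4 of 15 and 6 of 15 from the coding end against a background of 41.4% and 51.4%, and 10 of 16 and 12 of 16 from the signal end against 50% and 48.6%. With all groups of a bait in 1 fit these counts were 1 and 1 from the coding end and 3 and 3 from the signal end. Counting each distinct junction once gave 10 in place of 4 (L67, coding end) and 2 in place of 12 (L82-G17, signal end). Fewer sites could reach the minimum mean under that count.

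Igkv13-84 was higher in Ku70-/- from the coding end with both inhibitors. With L67 it took 0.781%, 0.907% and 0.853% in Ku70-/- and 0.245%, 0.183% and 0.331% in WT (log2 difference 1.83, SE 0.20, adjusted p = 0.00024). With L82-G17 the difference was 1.62 (SE 0.35, adjusted p = 0.0035). At the signal end with L82-G17 it was lower in Ku70-/-, by -1.02 (SE 0.17, adjusted p = 0.0020, no overlap), and with L67 it did not pass (-0.31, adjusted p = 0.15). Some low sites also went the other way with L82-G17, and U1 lost its call when single libraries were left out. U1 differed by -1.07 from the coding end (SE 0.35, adjusted p = 0.027). From the signal end U2 took 0%, 0.0125% and 0.00104% in Ku70-/- libraries and 0.101%, 0.0636% and 0.0651% in WT libraries.

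Hybrid joins were more frequent in Ku70-/- cells at most sites tested. From the coding end the hybrid share of the interval's site junctions was 0.225 to 0.244% in the 3 WT DMSO libraries and 37.9%, 33.3% and 32.0% in Ku70-/- (exact permutation p = 0.1, no overlap). With the signal end bait it was 4.01%, 6.18% and 8.09% in WT and 69.0%, 68.4% and 70.3% in Ku70-/- (exact permutation p = 0.1, no overlap). Igkv13-84 alone held 2309 of the 4293 hybrid joins of these WT libraries. A hybrid join has a signal end prey with the coding end bait and a coding end prey with the signal end bait, so Vκ coding ends were the commoner prey with both baits in Ku70-/- cells with DMSO. In cycling Ku70-/- cells the hybrid shares were 41.0%, 46.8% and 70.6% with the coding end bait and 38.5%, 9.36% and 32.2% with the signal end bait, neither overlapping DMSO (exact permutation p = 0.1 each). Signal ends were then the commoner prey in all 3 signal end bait libraries and in 1 of the 3 coding end bait libraries. Of the sites tested, 13 of 14 were higher in Ku70-/- from the coding end (92.1% of the region called) and 11 of 15 from the signal end (72.7%), the latter 5 with each distinct junction counted once. With L67 these numbers were 15 of 15 (97.1%) and 16 of 16 (93.4%), and with L82-G17 15 of 15 (98.1%) and 15 of 15 (89.0%). Counting each distinct junction once, the L82-G17 signal end count was 6, and the DMSO signal end difference over the interval went from 63.1 to 40.0 points. Fewer sites could be tested under that count.

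**Figure D3:**
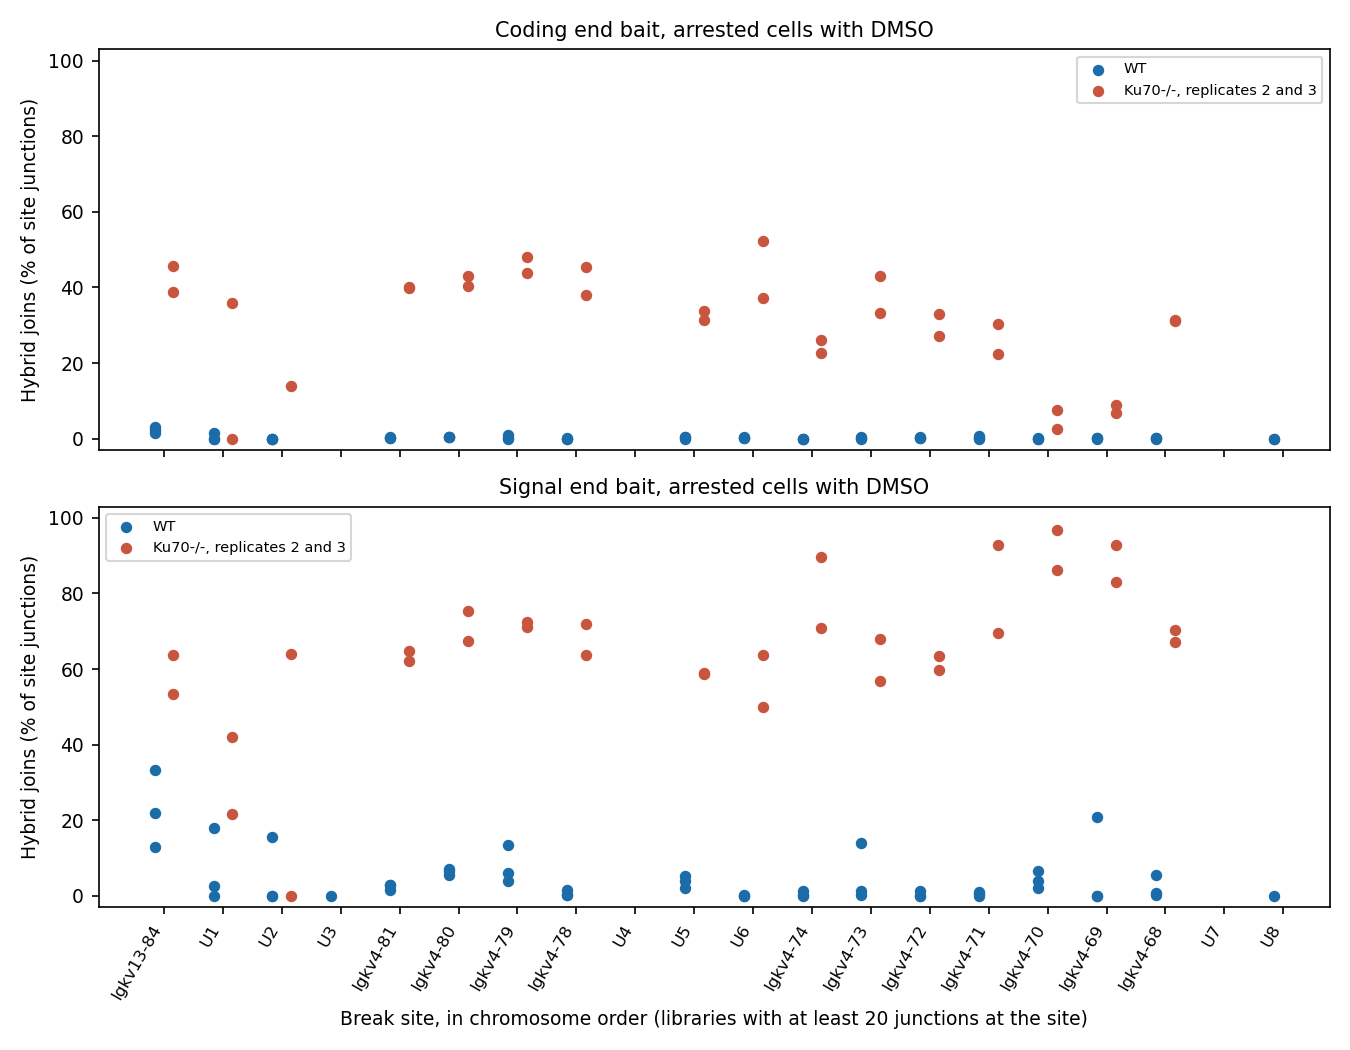
Hybrid joins as a percentage of the junctions at each break site of the interval in arrested cells with DMSO; each point is 1 library with at least 20 junctions at the site, blue for WT and red for Ku70-/- replicates 2 and 3. From the coding end the Ku70-/- points of Igkv4-70 and Igkv4-69 (5.01% and 7.83% on average) lie below those of the other annotated genes, and from the signal end their means (91.5% and 87.8%) are the highest of the annotated genes.

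The level in Ku70-/- cells varied with the site. Without replicate 1, the coding end bait gave 45.9% hybrid joins at Igkv4-79, 41.6% at Igkv4-80 and 24.4% at Igkv4-74. It gave 7.48% and 2.54% in the 2 libraries at Igkv4-70 and 6.74% and 8.93% at Igkv4-69, below all other annotated genes of the interval. The signal end bait gave 86.2% and 96.8% at Igkv4-70 and 92.7% and 83.0% at Igkv4-69, whereas Igkv4-81 stood at 64.7% and 62.1%. With both baits, signal preys at these genes were thus a small part of the joins, and these are the genes whose signal side is shared for 151 bp; the part of read alignment was not tested here either. With L67 the hybrid share of Igkv4-70 and Igkv4-69 from the coding end was again the lowest among the genes, at 12.9% ± 0.600 and 8.87% ± 4.06 (n = 3).

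Igkv13-84 had the most hybrid joins of the interval's annotated genes in WT cells. From the signal end they made up 12.8%, 21.9% and 33.2% of its junctions with DMSO, which was 385, 694 and 1230 junctions, and these came from 47 distinct junctions, the largest with 321 copies. Its libraries did not overlap those of Igkv4-81, at 2.85%, 3.01% and 1.62%. Over the region's deletional sites the median was 0.590% (49 sites), and 2 of them stood above Igkv13-84. Over the inversional sites it was 1.32% (65 sites), and 1 stood above. With L67 the values were 19.4%, 4.56% and 21.2%, and with L82-G17 8.13%, 7.98% and 6.47%. At Igkv13-84 Ku70-/- did not pass the test from either bait with DMSO (29.4% against 2.30%, adjusted p = 0.058 from the coding end, and 50.2% against 22.6%, adjusted p = 0.14 from the signal end). These Ku70-/- values include replicate 1, which held 1501 copies of a single coding junction at this gene from the coding end. With either inhibitor all sites of the interval that were tested passed from both baits.

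Trimming of the Vκ ends differed between the genotypes at both kinds of end, and the share with no base lost differed most at the signal ends. Of WT signal end preys from the signal end bait, 96.4% had lost no base, whereas in Ku70-/- replicates 2 and 3 this held for 10.3%, with a median loss of 10 bp and quartiles of 3 and 25 bp. Each site was placed at the highest nearby pileup of arrested WT signal end junctions, which favours WT signal end values near 0 bp. Coding preys from the coding end bait had lost a median of 3 bp in WT (quartiles 1 and 5 bp, 9.31% with no loss) and 12 bp in Ku70-/- (quartiles 7 and 23 bp, 0.551% with no loss). Losses over 30 bp were seen in 0.00439% of the WT and 17.7% of the Ku70-/- coding preys. The most frequent loss at single WT coding ends was 1 bp at Igkv4-70 and Igkv4-69 and 3 bp at Igkv4-81, U5, Igkv4-73, Igkv4-72, Igkv4-71 and Igkv4-68, and each of these held 22.5 to 25.2% of the site's coding preys. The coding ends of Igkv4-73, Igkv4-72, Igkv4-71 and Igkv4-68 shared the same last 20 bases.

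**Figure D4:**
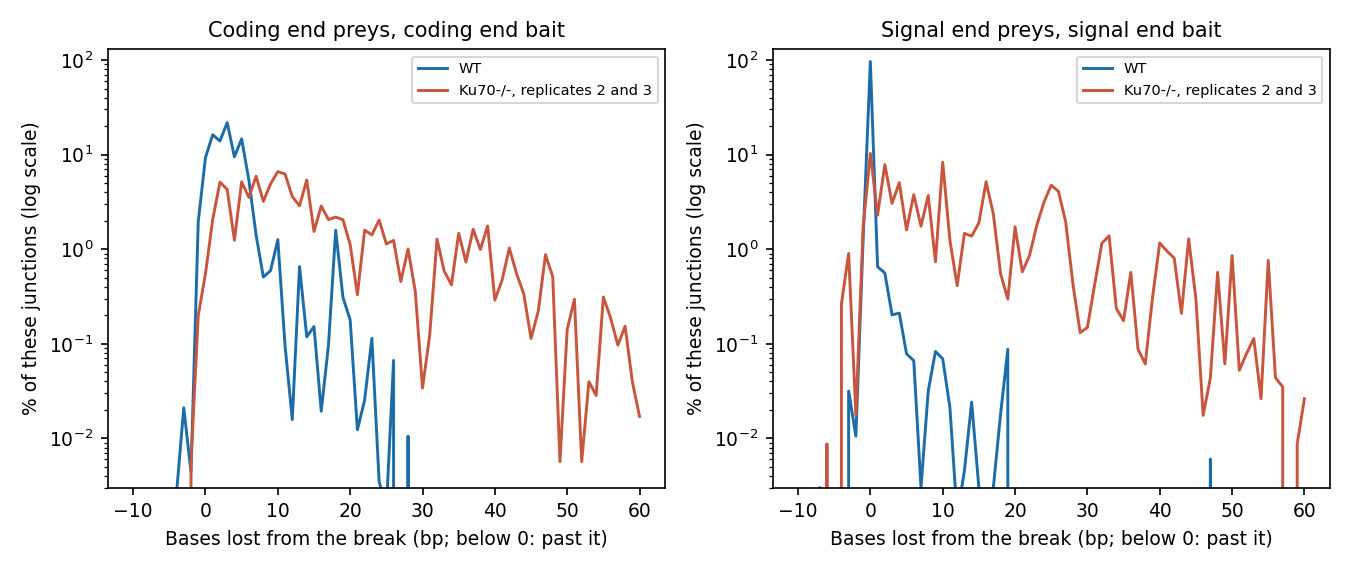
Bases lost from the Vκ end (x, bp; values below 0 lie past the break) as a percentage of the junctions of that kind (y, log scale), pooled over the interval's sites in arrested cells with DMSO, blue for WT and red for Ku70-/- replicates 2 and 3. WT signal ends peak at 0 bp lost (96.4%), whereas Ku70-/- ends of both kinds spread widely, with medians of 12 bp (coding) and 10 bp (signal). The sites were placed at pileups of arrested WT signal end junctions, which favours this WT peak.

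The share of junctions within 10 bp of the break, among those within 100 bp, was 95.9 to 96.9% in WT and 51.1%, 40.9% and 40.8% in Ku70-/- from the coding end, and 99.3 to 99.9% in WT and 66.1%, 46.6% and 49.1% in Ku70-/- from the signal end. Replicate 1 was the highest Ku70-/- library with each bait, and the Ku70-/- means fell from 44.2% to 40.8% and from 53.9% to 47.8% without it. The share was lower in Ku70-/- at 13 of 14 sites from the coding end (84.3% of the region called) and at 15 of 15 from the signal end (95.5%). Arrested WT signal end libraries also served to place the sites, which favours high WT values in the signal end contrasts. With each distinct junction counted once the signal end count was 6, and with the share taken within 20 bp in place of 10 the difference over the interval went from -45.7 to -29.9 points, and from -52.3 to -33.7 points from the coding end. With L67 it was lower at 15 of 15 (98.1%) and 16 of 16 (98.1%), and with L82-G17 at 15 of 15 (99.0%) and 15 of 15 (100% of the region), the last of which was 6 with each distinct junction counted once. Among genes with DMSO, Igkv4-80 went from 98.6% to 42.2% from the coding end (adjusted p = 0.00029). Igkv4-68 went from 93.9% to 17.9% (adjusted p = 0.0061). Igkv13-84 was the gene that did not pass, at 99.95% against 69.1% (adjusted p = 0.17). The Ku70-/- value includes replicate 1, which held 1501 copies of a single coding junction 6 bp from this break.

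The Jκ1 bait end was trimmed as well. No base was missing from it in 36.0% ± 0.565 of the interval's WT coding end bait joins and in 0.797% ± 0.717 in Ku70-/- (1.18% without replicate 1). At the signal end it was intact in 89.2% ± 1.12 and 5.80% ± 3.19 (7.63% without replicate 1). The medians of bait loss in Ku70-/- replicates 2 and 3 were 15 bp at the coding end and 12 bp at the signal end.

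Joint structure followed the same split. WT coding end joins were direct, with neither shared nor added bases, in 78.5% ± 0.850, and 15.3% ± 0.568 carried an insertion. In Ku70-/- 50.8% ± 3.98 were direct, 2.39% ± 1.66 carried an insertion and 33.9% ± 7.01 shared 1 bp, and without replicate 1 these were 49.2%, 3.31% and 30.02%. Joins sharing more than 1 bp rose from 2.05% ± 0.150 to 12.9% ± 8.15, where replicate 1 stood at 3.56% and the other libraries at 18.8% and 16.2%. With the signal end bait, 92.6% ± 1.54 of WT joins and 55.9% ± 1.48 of Ku70-/- joins were direct, and 1.67% ± 0.185 and 22.7% ± 2.56 shared more than 1 bp. With each distinct junction counted once, the coding end difference in insertions went from -12.9 to -47.9 points and the signal end difference in joins sharing more than 1 bp from 21.1 to 11.1. Under that count the difference in direct joins changed sign with both baits, as given below. With copies kept, no libraries overlapped between the genotypes in any of these shares (exact permutation p = 0.1 each). Insertions from the signal end overlapped, at 2.99% ± 0.710 and 1.93% ± 1.31 (exact permutation p = 0.4), and their difference went from -1.07 to -22.5 points with each distinct junction counted once.

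Per site with DMSO, insertion was lower in Ku70-/- at 11 of 14 sites from the coding end (86.5% of the region called). Igkv4-81 went from 12.7% to 2.44% (adjusted p = 0.0029) and Igkv4-80 from 15.0% to 1.39% (adjusted p = 0.00018). With the signal end bait 0 of 15 sites passed (0% of the region called by limma). Direct joining was lower at 4 of 14 sites from the coding end (13.5% of the region lower) and at 11 of 15 from the signal end (65.9%). Microhomology over 1 bp was higher at 6 of 14 (44.9%) and 10 of 15 (60.2%). Without Ku70-/- replicate 1 the coding end counts were 12 (direct) and 14 (microhomology), without any 1 WT library the count for direct joins was 0, and without Ku70-/- replicate 2 that for microhomology was 3. Counting each distinct junction once left 0 signal end calls for either, and gave 4 for insertion, where fewer sites could be tested. Counting each distinct junction once turned the difference in direct joins over the interval from -27.7 to 15.7 points with the coding end bait and from -36.8 to 4.52 points with the signal end bait. This count merges separate joins of the same form, so precise joins that repeat 1 form at a site weigh less. It cannot decide whether direct joining differs between the genotypes.

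WT coding end joins with DMSO held 17389 insertions in the interval, with a median length of 2 bp, and 60.7% were at most 2 bp long. The bases GT, as read from the bait, were the most frequent (2904, 16.7%), and 43.0% of insertions equalled the reverse complement of an adjoining end (palindromic, the form that opening a hairpin off its centre leaves). Among insertions over 1 bp the share was 35.2%. In Ku70-/-, replicate 1 included, 929 insertions had a median of 3 bp and 23.1% were of this palindromic kind, or 16.4% of those over 1 bp. WT signal end joins held 2111 insertions with a median of 1 bp, of which 30.2% equalled the reverse complement of an adjoining end, or 3.30% of those over 1 bp.

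**Figure D5:**
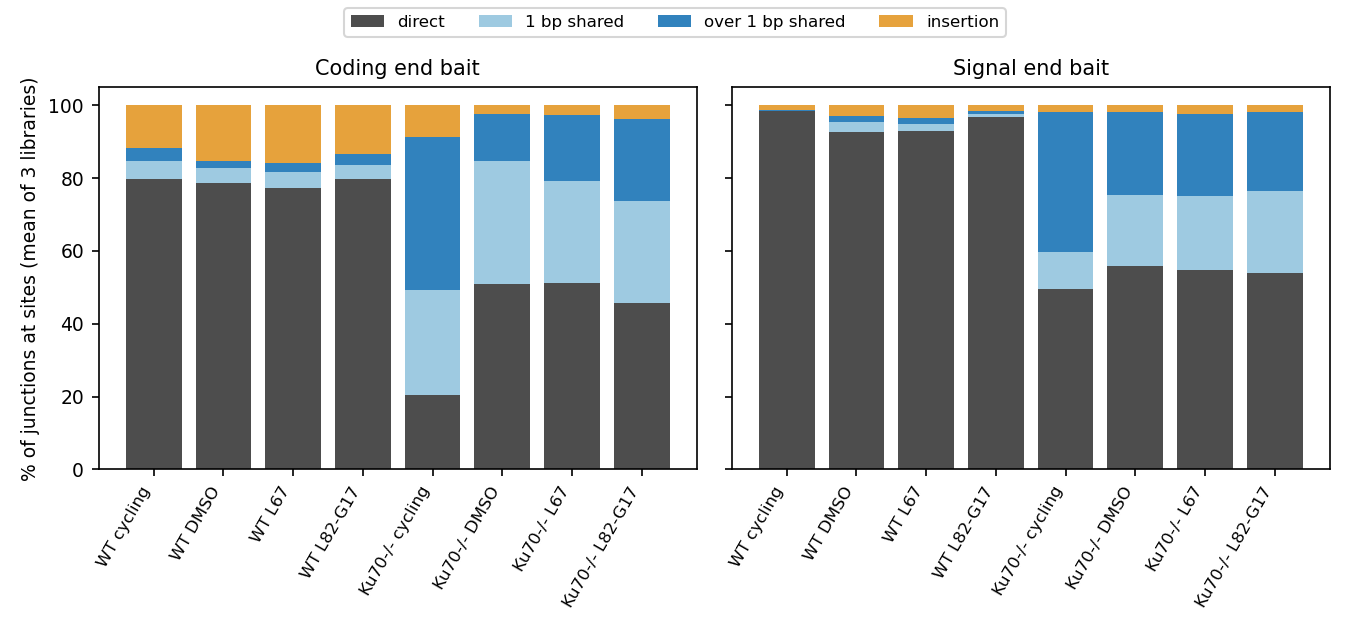
Mean share of joint structures (y, % of the interval's site junctions, 3 libraries a group) for each genotype and treatment, by bait; bars stack direct joins, joins sharing 1 bp, joins sharing more than 1 bp and insertions. Direct joins fall from 78.5% in WT to 50.8% in Ku70-/- with DMSO from the coding end, and to 20.4% in cycling Ku70-/- cells. Copies are kept here, and with each distinct junction counted once the DMSO coding end difference turned from -27.7 to 15.7 points. That count also merges separate joins of the same form.

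The interval's share was lower in arrested than in cycling WT cells when all copies were counted. From the signal end it took 10.6% ± 1.69 of Vκ junctions in cycling and 7.25% ± 0.0992 in DMSO cells, with no overlap (exact permutation p = 0.1). Coding end values were 12.1% ± 0.567 and 10.8% ± 0.0864 (exact permutation p = 0.1). With each distinct junction counted once, the signal end difference turned from -3.36 to 0.576 points and the coding end difference was -1.88 points. The cycling signal end libraries held 1904 to 2415 junctions in the interval. Of 16 sites, 2 rose and 3 fell with arrest from the signal end, where 56.4% of the region was called, 38.2% higher and 18.2% lower. The 2 that rose include U2, whose rise was favoured by its placing from arrested WT signal end junctions. Igkv13-84 rose from 0.0423%, 0.154% and 0.129% to 0.877%, 0.967% and 1.13% (log2 difference 3.32, SE 0.62, adjusted p = 0.0030). U2 took 0.00470%, 0.00964% and 0% in cycling libraries. Igkv4-72 fell by 2.01 (SE 0.33, adjusted p = 0.0016) and Igkv4-80 by 1.20 (SE 0.32, adjusted p = 0.017), the latter not called without cycling replicate 3 or DMSO replicate 2. With the coding end bait 1 of 15 was called (38.2% of the region, 18.2% lower), and Igkv4-70 fell by 0.84 (SE 0.23, adjusted p = 0.023), a call lost without any 1 of the 3 DMSO libraries or cycling replicate 2. Hybrid joins from the WT signal end bait were 0%, 0.248% and 0.370% in cycling and 4.01% or more in DMSO cells, with no overlap. In Ku70-/- cells no site was called by limma for arrest in the fit of these groups alone, in the interval (1 of 14 and 2 of 15 at an unadjusted p under 0.05) or the region (0%). With all groups of a bait in 1 fit the interval had 3 calls from the coding end and 5 from the signal end.

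Cycling Ku70-/- cells had the interval's largest share of scattered joins, but not the largest number. Junctions more than 200 bp from every break site made up 29.5%, 30.3% and 35.0% of the interval's junctions from the coding end and 12.7%, 13.4% and 25.7% from the signal end. These were 291, 246 and 199 junctions from the coding end, against 5, 232 and 295 in Ku70-/- DMSO libraries. From the signal end they were 90, 119 and 118 junctions, against 0, 373 and 119. In cycling WT libraries the share was at most 0.0585%. In arrested Ku70-/- cells with DMSO it was 1.34% ± 1.19 from the coding end (1.998% without replicate 1). With the signal end bait it was 2.38% ± 1.12 in WT and 0.857% ± 0.980 in Ku70-/- with DMSO, which overlapped (exact permutation p = 0.2). It was higher in WT with L67, at 3.28% ± 0.613 against 1.17% ± 0.204, and lower in WT with L82-G17, at 0.993% ± 0.401 against 2.10% ± 0.952 (exact permutation p = 0.1 each, the smallest 3 against 3 can give). Joins sharing more than 1 bp were also most frequent in cycling Ku70-/- cells, at 42.2% ± 6.87 from the coding end and 38.3% ± 5.80 from the signal end. These libraries held 460 to 959 junctions in the interval.

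With the ligase inhibitors a few sites were used more in WT cells in the fit of each pair of groups, and none of these calls was kept when all groups of a bait shared 1 fit. The interval's share stood with L67 at 11.9% ± 0.126 (coding end) and 9.50% ± 0.293 (signal end), and with L82-G17 at 12.1% ± 0.496 and 9.95% ± 0.161, and in each case all libraries lay above DMSO (exact permutation p = 0.1). With each distinct junction counted once, the L82-G17 difference turned from 2.70 to -1.46 points at the signal end and went from 1.30 to 0.654 at the coding end. With L67, 4 of 15 sites were higher from the coding end (13.9% of the region called, 7.83% higher) and 3 of 16 from the signal end (6.14%, 4.39% higher), and none was lower. U5 took 1.08%, 1.37% and 1.24% with L67 and 0.688%, 0.804% and 0.754% with DMSO from the signal end (log2 difference 0.72, SE 0.13, adjusted p = 1.4e-05). It was higher by 0.24 from the coding end (SE 0.05, adjusted p = 0.019). Igkv4-81 was higher by 0.45 from the signal end (SE 0.11, adjusted p = 0.0032), and Igkv4-68 by 0.20 from the coding end (SE 0.05, adjusted p = 0.036). The 4 coding end calls fell to 0 to 2 when any 1 library was left out, and without WT DMSO replicate 1 the signal end calls fell to 1.

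With L82-G17, 4 sites were higher and 1 lower of 16 in WT from the coding end (42.6% of the region called, 23.5% higher and 19.1% lower), and 6 of 16 were higher from the signal end (24.8%, 11.5% higher). Igkv4-81 took 1.96%, 2.05% and 2.06% from the coding end, above all DMSO libraries (log2 difference 0.45, SE 0.05, adjusted p = 0.00012). Igkv4-79 was higher by 0.54 (SE 0.12, adjusted p = 0.0048) from the coding end and by 0.93 (SE 0.23, adjusted p = 0.00054) from the signal end. Igkv4-72 was higher by 0.87 from the signal end (SE 0.22, adjusted p = 0.0012). Without WT DMSO replicate 2 the signal end calls were 3 in place of 6, and Igkv4-79 no longer passed at 0.66. Igkv4-69 was the site that was lower, by -0.34 from the coding end (SE 0.08, adjusted p = 0.0096). L67 and L82-G17 were given at different doses and were not compared with each other.

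In Ku70-/- cells neither inhibitor gave a call in the interval by limma (0 of 14 and 0 of 15 sites for each, with 0 at an unadjusted p under 0.05). In the region 0% of sites were called for L67, and 1.04% (coding end) and 0% (signal end) for L82-G17. Without replicate 1, 2 sites were higher with L82-G17 from the coding end (29.9% of the region). Over the interval as a whole, L82-G17 libraries had fewer hybrid joins than DMSO libraries in Ku70-/- cells with both baits, and in WT cells with the signal end bait (1.63% ± 0.527 against 6.09% ± 2.04, no overlap, exact permutation p = 0.1). Of the 4293 hybrid joins in those WT DMSO libraries, 2309 lay at Igkv13-84 and came from 47 distinct junctions. Ku70-/- coding end libraries had 20.3%, 20.7% and 24.0%, below the lowest DMSO library at 32.0%. Ku70-/- signal end libraries had 50.5%, 51.1% and 56.9%, below the lowest DMSO library at 68.4% (exact permutation p = 0.1 for each bait). With L67 the Ku70-/- values were 34.4% ± 2.10 and 68.8% ± 2.42, which overlapped DMSO (exact permutation p = 1 and p = 0.8). No single site of the interval passed in limma for any of the 5 readouts between an inhibitor and DMSO in either genotype, where at most 0.901% of the region was called for any readout, bait and inhibitor; at most 4 of the interval's sites reached an unadjusted p under 0.05 in any of these. With each distinct junction counted once, WT cells had 14 calls in the interval over the 5 readouts.

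Not every pileup lay at a placed break site. Sites were placed only from arrested WT signal end pileups next to CAC, so whether these positions lie at other breaks was not tested. Among coding end bait junctions, 3492 lay away from the sites, and 10 positions with at least 30 junctions held 26.1% of them. The largest, at chr6:69292485, held 276 junctions of 23 libraries and 177 distinct junctions, all on the plus strand, 7888 bp from U8. Its next bases were CTG, and it was spread over nearby positions such as 69292472 and 69292489. The next, at chr6:69175392 and chr6:68938626, held 184 and 177 junctions on the minus strand but 9 and 13 distinct ones, and cycling Ku70-/- replicate 1 gave 42.4% and 41.8% of them. Among signal end bait junctions 7306 lay away from the sites. Of 70 such pileups, which held 65.4% of them, 54 were on the minus strand, 26 came from 1 library and 52 had at most 3 distinct junctions. The largest, at chr6:68928919, held 210 junctions of 5 libraries and 7 distinct ones.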

How the data were processed

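Junctions came from 48 HTGTS-JoinT-seq libraries of mouse vAbl cells, 3 in each of 16 groups by genotype, treatment and bait. The authors amplified bait junctions from sheared DNA by LAM-PCR, sequenced them paired-end, aligned them with Bowtie2 to mm9 without removing duplicates, and deposited 1 row per junction with coordinates, strand and alignment positions; tool versions are not given in the sources used here. From these deposited positions, counts of junctions per site were made here, with copies kept, so intervals between libraries hold amplification as well as counting error. Each junction went to the nearest break site within 200 bp. Usage was log2 of a site's share of site junctions, with 1 junction added, at sites with a mean of at least 50; joint readouts were log2 odds with an offset of 0.5. limma 3.58.1 in R 4.3.3 (lmFit, eBayes with trend) tested 22 usage comparisons, Benjamini-Hochberg adjusted over all sites at 0.05. Single values over the interval were compared by exact two-sided permutation. Data were simulated with the spread of the WT DMSO libraries in both groups. Of 30 sites changed by 1.5 (log2), 100% (coding end, 112 sites) and 83.3% (signal end, 113 sites) were recovered, with 0 and 1 unchanged sites called. The spread of the Ku70-/- libraries was not used, so recovery in the comparison of Ku70-/- against WT with DMSO was not tested. In the measured coding end libraries of this comparison, SEs in the interval ran from 0.16 (Igkv4-80) to 2.22 (U6). U6 differed by -3.02 and Igkv4-69 by -2.46 (SE 2.02), and neither was called. Recovery at SEs of that size was not tested. The sites named with values are the 6 with the highest and the 2 with the lowest WT DMSO coding end usage, those without a gene or a full heptamer, and up to 2 with the largest rise and fall per comparison whose groups did not overlap; others were named after their values were seen. Members and lists were chosen with earlier results of these data known. No replicate numbers are in the labels, so replicates are numbered in accession order.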

Additional observations from a re-analysis of the deposited data

Results flagged for a closer look

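The effect of the bait on usage (signal end minus coding end, log2) differed between Ku70-/- and WT cells at several sites by the interaction term in limma, given here as Ku70-/- minus WT. With DMSO it was 5.73 at Igkv4-70. With L67 it was 4.75 at Igkv4-69, 4.67 at Igkv4-70, 1.78 at Igkv4-71, 1.73 at Igkv4-72, 1.72 at Igkv4-74, 1.15 at Igkv4-68, 0.62 at Igkv4-80 and 0.48 at Igkv4-73, and it was -2.14 at Igkv13-84. U2 stood at -2.81 with L67, which is a description only, since its place was set from arrested WT signal end junctions and this direction was favoured. With L82-G17 it was 3.63 at Igkv4-69, 2.80 at Igkv4-70, 1.26 at Igkv4-74, 1.24 at Igkv4-72, 1.11 at Igkv4-68 and 0.91 at Igkv4-71, and it was -2.65 at Igkv13-84 and -0.53 at Igkv4-81. Each treatment used its own libraries. Usage counts coding and signal preys together, and hybrid joins were far more frequent in Ku70-/- cells, so these terms do not compare joins of the same kind. The clone and the loss of Ku70 cannot be told apart, and the part of read alignment at sites with long identical runs was not tested.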

How the results depend on the processing

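No paired analysis was possible because the labels carry no replicate numbers. With all groups of a bait in 1 fit, the number of interval sites called went for Ku70-/- against WT from 1 to 0 (DMSO, coding end), 4 to 1 and 10 to 3 (L67, coding and signal end), 6 to 1 and 12 to 3 (L82-G17), and 0 to 2 and 0 to 3 (cycling). For arrest it went from 1 to 0 and 5 to 3 in WT and from 0 to 3 and 0 to 5 in Ku70-/-. For L67 in WT it went from 4 to 0 and 3 to 0, for L82-G17 from 5 to 0 and 6 to 0, and between baits from 13 to 2 (WT) and 0 to 2 (Ku70-/-). With each distinct junction counted once, the genotype calls became 4 (DMSO, coding end), 1 (DMSO, signal end), 10 (L67, coding end) and 2 (L82-G17, signal end); WT coding end calls became 2 for arrest, 2 for L67 and 2 for L82-G17, and 7 between baits; 5 of the 22 comparisons had too few sites for a value. With usage taken of all junctions the genotype calls became 0 (DMSO, coding end), 12 (L67, coding end), 3 and 2 (cycling), and Ku70-/- signal end arrest 2. At a minimum of 10 junctions the DMSO coding end calls became 2.

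Distinct counting also moved the site readouts for Ku70-/- against WT. Signal end calls went from 11 to 5 (hybrid), 15 to 6 (within 10 bp), 11 to 0 (direct), 10 to 0 (microhomology over 1 bp) and 0 to 4 (insertion) with DMSO, and from 15 to 6 for both hybrid and within 10 bp with L82-G17. Coding end microhomology went from 6 to 12. WT inhibitor readouts went from 0 to 14, and to 1 with the trimming share taken within 20 bp in place of 10, an alternative run for that readout alone.

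Over the interval, distinct counting moved the DMSO genotype difference in points from -52.3 to -37.5 (within 10 bp, coding end), -27.7 to 15.7 (direct, coding end), -12.9 to -47.9 (insertion, coding end), 63.1 to 40.0 (hybrid, signal end), -36.8 to 4.52 (direct, signal end), 21.1 to 11.1 (microhomology over 1 bp, signal end) and -1.07 to -22.5 (insertion, signal end). The share taken within 20 bp in place of 10 gave -33.7 (coding end) and -29.9 (from -45.7 at the signal end). The interval's share, Ku70-/- minus WT, went from 1.58 to -2.87 (distinct) and -0.9998 (of all junctions) with DMSO at the coding end, from 1.18 to -2.47 and -1.39 with L67, and from 0.626 to -2.11 and -0.962 with L82-G17. At the signal end it went from 5.31 to 0.680 and 2.88, from 5.42 to 0.574 and 2.41, and from 2.70 to 1.504 and 0.206. Distinct counting moved arrest in WT from -1.28 to -1.88 (coding end) and -3.36 to 0.576 (signal end), arrest in Ku70-/- from 2.61 to 1.13 (coding end), L82-G17 in WT from 1.30 to 0.654 and 2.70 to -1.46, L67 at the signal end from 2.25 to 1.74 (WT) and 2.36 to 1.63 (Ku70-/-), and the WT bait difference from -3.59 to -2.80. As a share of all junctions, signal end arrest in Ku70-/- became 3.60 (from -3.58), L82-G17 in WT 2.37, L67 in Ku70-/- 1.65 and the bait difference -3.13. Distinct counting merges separate joins of the same form with amplified copies, so shares of precise joins fall under it by its definition. The causes were not tested further.

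Leaving out 1 library at a time gave ranges of called sites. For the genotype they were 0 to 4 (DMSO, coding end, main 1), 1 to 10 (DMSO, signal end, main 3), 7 to 13 (L82-G17, signal end, main 12), 0 to 2 and 0 to 3 (cycling, main 0). Both DMSO maxima came without Ku70-/- replicate 1; the lowest came without any other library (coding end) and without WT replicate 1 (signal end). The lowest for L82-G17 came without WT replicate 1, and the highest for cycling cells without Ku70-/- replicate 3 (coding end) and 1 (signal end). For arrest they were 0 to 3 and 3 to 7 in WT (main 1 and 5) and 0 to 1 in Ku70-/- (signal end); any DMSO library left out gave the 0 and cycling replicate 3 the 3 (WT coding end), and DMSO replicate 2 the 3 (WT signal end). For L67 they were 0 to 2 and 1 to 3 in WT (main 4 and 3) and 0 to 1 in Ku70-/- (coding end). For L82-G17 they were 3 to 6 in WT (signal end) and 0 to 2 in Ku70-/- (coding end). Every rise in Ku70-/- for arrest and inhibitors came without DMSO replicate 1. For coding end readouts with DMSO they were 0 to 12 (direct), 3 to 14 (microhomology over 1 bp) and 6 to 15 (insertion), where any WT library left out gave the 0 and the 6, Ku70-/- replicate 2 the 3, and Ku70-/- replicate 1 the 12 and the 14, and for WT inhibitor readouts 0 to 2 (without L82-G17 signal end replicate 1). No named site reversed; 42 of 213 values with 1 library left out, and 34 of 267 under the other alternatives, no longer passed. Depth limited cycling Ku70-/- libraries most, at 460 to 959 junctions in the interval.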
